A study of Mus musculus with 21 samples.

Results

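The cholesterol efflux, LXR and intracellular trafficking genes described here are Abca1, Abcg1, Nr1h2, Nr1h3, Mylip, Npc1, Npc2, Soat1 and Lipa, 9 of the 53801 genes counted, found by their gene symbols. All 9 had at least 10 counts summed over the 21 mice and were tested with 20256 genes in all. RNA was sequenced from IgA+ PCs, the antibody-secreting plasma cells of the gut that make IgA, sorted from the lamina propria of the small intestine of each mouse as CD138+ IgA+ cells. The control mice were Mb1Cre-/- x Arntlfl/fl, 6 at ZT0 and 6 at ZT12, and the knockout mice were 4 at ZT0 and 5 at ZT12. All were C57BL/6 littermates carrying the floxed Arntl allele, fed ad libitum under a light and dark cycle, and zeitgeber time (ZT) counts hours from lights on. In the knockout mice, Cre placed in the Mb1 locus, the gene Cd79a, deletes part of Arntl, which encodes the clock factor Bmal1, in the whole B cell lineage and not in plasma cells alone. Knockout status rests on the sample titles (KO), because in 8 of these 9 samples the genotype entry reads Mb1Cre-/- x Arntlfl/fl, as in controls. Animal age was not given in the sources used here.

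Cells that take in more cholesterol than they use can export it, esterify it or move it between membranes. LXR alpha (Nr1h3) and LXR beta (Nr1h2) are nuclear receptors that bind oxysterols and raise transcription of the exporters Abca1 and Abcg1 and of Mylip, a ubiquitin ligase that sends lipoprotein receptors for degradation. Cholesteryl esters delivered to the lysosome are hydrolysed by lysosomal acid lipase (Lipa), the freed cholesterol is handed by Npc2 to Npc1 and leaves the lysosome, and Soat1 esterifies surplus cholesterol in the endoplasmic reticulum. These genes are best known from macrophages and hepatocytes.

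The promoters of Abca1 and Mylip are shown because these 2 genes had the largest fitted time of day differences of the 9 in knockout mice. RefSeq promoter windows, from 250 bases before to 50 bases after the start site in GRCm38.p6, were found for 7 of the 9 genes, with 2 windows for Nr1h3. The windows were searched on both strands for the nuclear receptor half-site AGGTCA, the LXR element DR4 (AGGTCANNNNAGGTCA, which holds the half-site), the E-box CACGTG read by Bmal1 and related factors, the lysosomal gene element core TCACGTGA (which holds the E-box) and the sterol element TCACCCCAC. The only exact match among the 8 windows was an E-box in Abca1, whose first base lies 147 bases before the start site. These letters occur in 7.15% of the 32851 promoter windows of the same length, against 16.3% for the half-site, 0.0152% for DR4, 0.974% for the lysosomal core and 0.551% for the sterol element. A match is a description of the letters and not evidence of binding. The search took exact letters and misses elements that differ at any base, so a window without a match to an element may still hold a variant of it. This applies to the LXR element in the Abca1 window too, which matched the E-box alone. The 250 bases before each start site follow, with the E-box in capitals. The Abca1 sequence is on the minus strand at chr4:53159896-53160145, and the Mylip sequence is on the plus strand at chr13:45389492-45389741.
Abca1: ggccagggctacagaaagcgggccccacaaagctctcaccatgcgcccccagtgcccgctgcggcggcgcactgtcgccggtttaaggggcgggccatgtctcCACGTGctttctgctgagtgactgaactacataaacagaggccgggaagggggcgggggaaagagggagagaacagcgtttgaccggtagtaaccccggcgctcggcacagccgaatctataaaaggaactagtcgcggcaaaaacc
Mylip: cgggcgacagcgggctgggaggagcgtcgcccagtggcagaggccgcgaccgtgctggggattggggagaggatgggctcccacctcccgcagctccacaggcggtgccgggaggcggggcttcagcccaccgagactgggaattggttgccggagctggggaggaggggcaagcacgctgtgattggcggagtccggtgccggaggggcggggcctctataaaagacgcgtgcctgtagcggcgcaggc

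The libraries were first checked against their labels and for signs of other cells. Each held between 14471018 and 22785835 counts, and all 12 plasma cell markers were detected in each, led by Igha, the constant region of IgA, at a mean of 304433 TMM-scaled counts per 1000000 counts of the library (CPM). Arntl was 6.83 to 8.36 CPM in control mice at ZT0 and 4.08 to 6.47 CPM in knockout mice at ZT0, with no overlap, whereas at ZT12 the ranges of 4.00 to 5.56 CPM and 3.11 to 4.93 CPM overlapped, in counts taken over the whole gene and not over the deleted part alone. The 6.47 CPM was that of knockout ZT0 replicate 3, against 4.08 to 4.51 CPM in the other knockout mice at ZT0. Cd79a, which hosts the Cre, was at most 276 CPM in knockout and at least 386 CPM in control mice. Immunoglobulin genes took 51.5% to 55.7% of the counts in 17 libraries and more than that in control ZT12 replicates 2 (63.6%), 4 (59.5%) and 5 (59.1%) and in knockout ZT0 replicate 3 (59.4%). In control mice the share was 51.4906% to 53.3452% at ZT0 and 53.3455% to 63.5705% at ZT12, without overlap. Fits below with this share as a covariate therefore cannot fully separate it from time of day in control mice. Xist was over 100 CPM in 3 of 6, 3 of 6, 2 of 4 and 2 of 5 mice of control ZT0, control ZT12, knockout ZT0 and knockout ZT12. Xist and Y chromosome reads occurred together in 3 libraries. These were knockout ZT0 replicate 3 (20.7 CPM of Ddx3y beside 428 CPM of Xist), knockout ZT12 replicate 5 (2.23 beside 344 CPM) and, at the level of a few reads, control ZT12 replicate 5 (0.145 beside 388 CPM). In the 11 libraries with low Xist, Ddx3y was 87.5 to 114 CPM. The time of day differences of Abca1 and Mylip in knockout mice and of Npc2 and Lipa in control mice are given with and without these 3 libraries, and with and without the 4 with over 59% immunoglobulin counts. Leaving out these 4 takes away replicates 2, 4 and 5 of the 6 control ZT12 mice and replicate 3 of the 4 knockout ZT0 mice. A loss of calls without them therefore cannot be told apart from the loss of mice.

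Gene positions are those of GRCm38, to which 52056 of the 53620 genes matched to GENCODE M21 have identical coordinates. Nr1h2 was the most abundant of the 9 genes per kilobase of the gene length in the file and Abcg1 the least. The mean level over 21 mice was 27.9 CPM per kb for Nr1h2, above 95.5% of the protein-coding genes tested, and 20.6 for Npc2, above 93.5%. Lipa followed at 4.67 CPM per kb, Npc1 at 2.19, Mylip at 1.91 and Abca1 at 1.42, the first above 72.2% and the last above 48.5% of protein-coding genes. Soat1 was at 0.450 CPM per kb, Nr1h3 at 0.412 and Abcg1 at 0.160, above 23.1% of protein-coding genes. Between neighbours in this order, Npc1 was above Mylip in 14 of 21 mice and Soat1 above Nr1h3 in 11 of 21, so these pairs were not separated beyond their spread, while each other neighbour pair kept its order in at least 17 mice. With the median length of the protein-coding GENCODE M21 transcripts as the divisor, Soat1 (2.35 CPM per kb) passed Abca1 (1.44), and the other genes kept their order.

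The 9 genes were compared between times of day within each genotype, between genotypes at each time, and in the interaction of both. Abca1, and with it Mylip, was higher on average at ZT12 in knockout mice, Npc2 was higher and Lipa lower on average at ZT12 in control mice, and Nr1h2 was level throughout. None of the 9 was called in any of the 5 comparisons by edgeR at an adjusted p under 0.05, the threshold for a call. The share of all tested genes called was 1.73% between ZT12 and ZT0 in control mice (192 higher and 158 lower), 0% in knockout mice, 0% for the interaction, 0.00987% between genotypes at ZT0 and 0.0148% at ZT12. At an unadjusted p under 0.05, 2 of the 9 differed in control mice (Npc2 and Lipa), 2 in knockout mice (Abca1 and Mylip), 2 in the interaction (Abca1 and Npc2), 0 between genotypes at ZT0 and 1 at ZT12 (Lipa), against 18.1%, 8.01%, 10.8%, 4.90% and 8.83% of all genes. DESeq2 called 1 of the 9 in control mice (Npc2, of 1052 genes called) and 1 in knockout mice (Abca1, of 47) and none in the other comparisons. The median log2 difference of the 9 genes was 0.12 in control mice and -0.04 in knockout mice, against 0.01 over all genes in each. The control and knockout comparisons share no mice, while the interaction and the genotype comparisons reuse them.

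Of the 2 LXR genes, Nr1h2 was far more abundant than Nr1h3 and varied least. Nr1h2 (chr7:44549616-44553951) lay between 83.4 and 101 CPM in all 21 mice, with a coefficient of variation of 5.47%, the lowest of the 9 genes. Its group means were 94.7 ± 4.96 CPM (SD, n = 6) in control mice at ZT0, 93.5 ± 4.60 (n = 6) at ZT12, 94.5 ± 8.11 (n = 4) in knockout mice at ZT0 and 92.0 ± 4.33 (n = 5) at ZT12. The fitted time of day difference was -0.02 (log2, 95% interval -0.17 to 0.13) in control mice and -0.04 (-0.22 to 0.14) in knockout mice. Nr1h3 (chr2:91184061-91202834), the isotype abundant in macrophages and liver, was between 0.471 and 2.03 CPM on 7 to 32 counts per mouse. Per kb, Nr1h2 was 34.9 to 151 times Nr1h3, with a median of 74.5. Nr1h3 was not called in any comparison, and the interval of its control difference, which holds the spread between mice, ran from -0.69 to 0.96 (log2). Mice of 1 group differed beyond counting error, with 95% Poisson intervals of 1.35 to 2.94 CPM in control ZT12 replicate 5 and 0.210 to 0.958 CPM in replicate 2. A same-strand transcript, Gm13783, overlaps Nr1h3 and had 32 counts in total against 366.

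**Figure D1:**
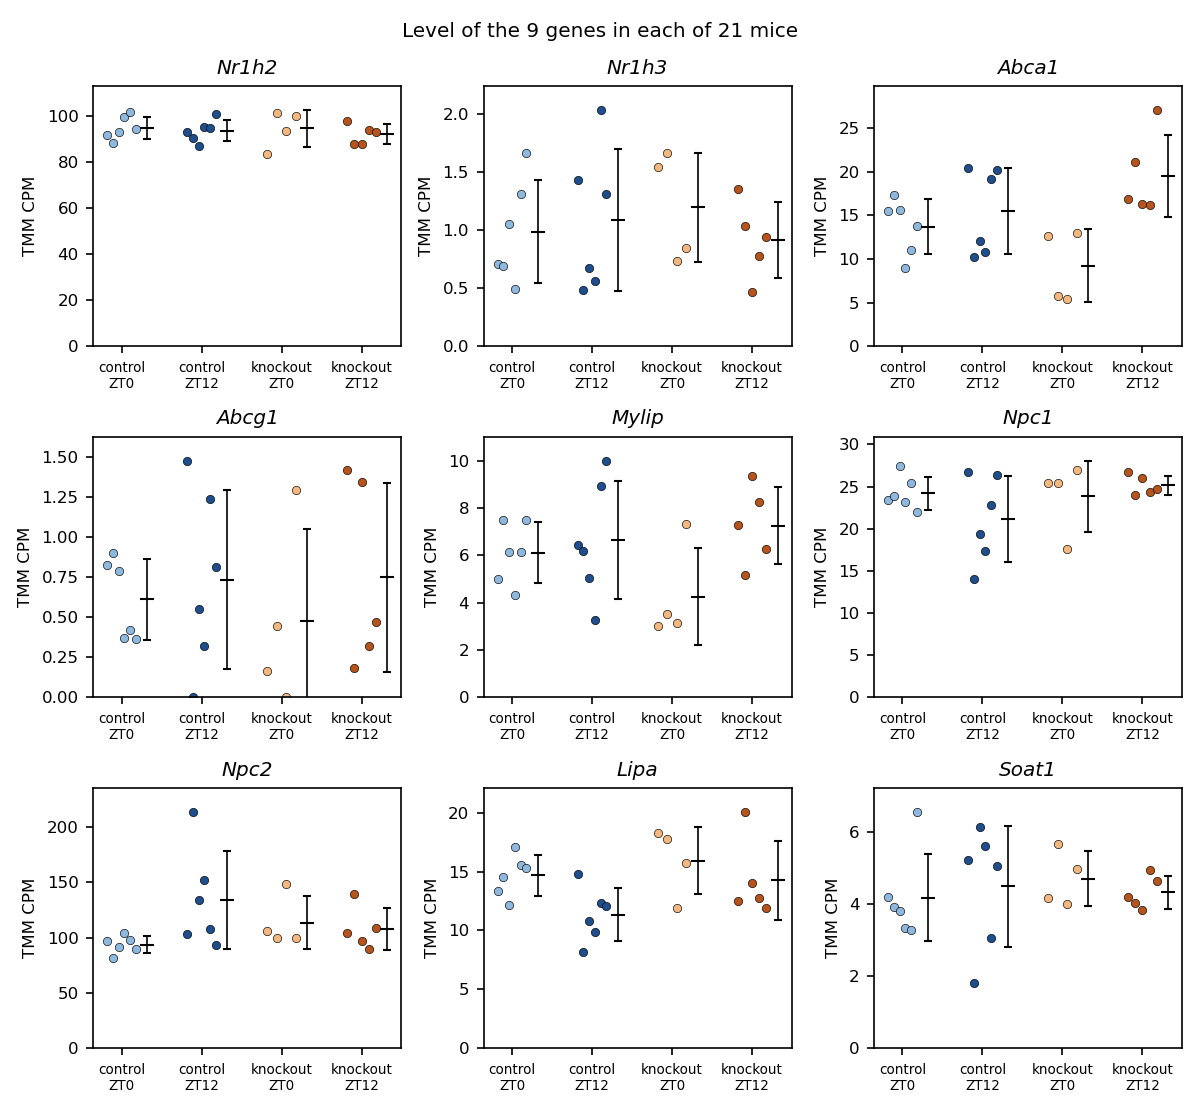
Level of each of the 9 genes in CPM (TMM-scaled, vertical axis from 0) in every mouse, by genotype and time; points are mice, bars are the group mean and SD, and the SD bar of Abcg1 in knockout mice at ZT0 is cut at 0. Abca1 in the 5 knockout mice at ZT12 (16.2 to 27.1 CPM) sits above all 4 at ZT0 (5.40 to 13.0 CPM), whereas Nr1h2 stays between 83.4 and 101 CPM.

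Of the LXR targets Abca1, Abcg1 and Mylip, Abca1 had the largest fitted difference in knockout mice. Abca1 (chr4:53030787-53159895), which loads cholesterol and phospholipid onto lipid-poor apolipoproteins, was 12.7, 5.80, 5.40 and 13.0 CPM in the 4 knockout mice at ZT0. At ZT12 the 5 knockout mice had 16.9, 21.2, 16.3, 16.2 and 27.1 CPM. Every knockout mouse at ZT12 was thus above every knockout mouse at ZT0. The mean was 9.22 ± 4.18 CPM (SD, n = 4) at ZT0, against 19.5 ± 4.71 CPM at ZT12 (SD, n = 5), a ratio of 2.12 with an exact two-sided permutation p of 0.00794, the smallest that the 126 splits of 9 mice can give. Of all genes tested, 1.22% lay higher in every knockout mouse at ZT12 than in every one at ZT0, and Abca1 was the only one of the 9. In control mice the lowest, median and highest values were 9.02, 14.6 and 17.3 CPM at ZT0, against 10.3, 15.6 and 20.4 CPM at ZT12. These groups overlapped through most of their range, with means of 13.7 ± 3.13 and 15.5 ± 4.93 CPM (SD, n = 6 each). At ZT0 the 3 control mice with Xist over 100 CPM had 15.6 to 17.3 CPM of Abca1 and the 3 with less had 9.02 to 13.7, whereas at ZT12 they had 10.3 to 20.4 and 10.8 to 20.3 CPM. With Xist as a covariate the control difference was 0.19 and the knockout difference 1.103.

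In edgeR's quasi-likelihood fit over all genes, Abca1 differed by 1.08 ± 0.29 (log2, SE, 95% interval 0.46 to 1.69) between ZT12 and ZT0 in knockout mice, with an unadjusted p of 0.00157 and an adjusted p of 0.414, and was not called. DESeq2 gave the same difference (1.08) with an adjusted p of 0.0403 and called it, and the adjusted p ran from 0.0403 to 0.981 over all fits tried. In control mice the edgeR difference was 0.18 ± 0.25. The interaction, the knockout difference minus the control difference, was 0.90 ± 0.38 (unadjusted p = 0.0287, adjusted p = 0.444 by edgeR), so that a difference between genotypes in the time of day change was not established. At ZT0, the knockout minus control difference of Abca1 was -0.57 ± 0.28 (log2, adjusted p = 0.926 by edgeR), and at ZT12 it was 0.33 ± 0.26 (adjusted p = 0.707). The lowest knockout value at ZT0 (replicate 3) and the highest at ZT12 (replicate 5) came from libraries with both Xist and Y reads. The latter library also had 823 CPM of epithelial markers against 67.9 to 198 in the other knockout mice at ZT12, and the library with the most, control ZT12 replicate 5 (1090 CPM), had 19.2 CPM of Abca1. Without the 3 libraries the knockout difference was 0.74 (adjusted p = 0.981), the control difference 0.12 and the interaction 0.62 (unadjusted p = 0.122). Without the 4 libraries with over 59% immunoglobulin counts these were 0.89, 0.36 and 0.53 (unadjusted p = 0.204 for the interaction), and with the immunoglobulin share as a covariate 1.06, 0.56 and 0.50 (unadjusted p = 0.220). The ZT0 difference between genotypes was -0.37 without the 3 libraries and -0.38 without the 4, and the ZT12 difference was 0.24 and 0.15.

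Mylip (chr13:45389742-45412022) was 3.02, 3.51, 3.13 and 7.31 CPM in the knockout mice at ZT0, against 7.27, 5.17, 9.35, 8.24 and 6.27 CPM at ZT12. Of the ZT0 mice, 3 were below all 5 at ZT12 and 1 was within their range. The means were 4.24 ± 2.05 (SD, n = 4) and 7.26 ± 1.63 CPM (SD, n = 5). The fitted difference was 0.77 ± 0.29 (log2, SE; unadjusted p = 0.0129, adjusted p = 0.571 by edgeR) and the exact permutation p was 0.0556. Without knockout ZT0 replicate 4, the high mouse, the difference was 1.16 (adjusted p = 0.224), the lowest adjusted p over the fits tried, which reached 0.981. It was 0.69 without the 3 libraries with both Xist and Y reads and 0.64 without the 4 with over 59% immunoglobulin counts. In control mice Mylip ranged from 4.32 through a median of 6.15 to 7.51 CPM at ZT0, and from 3.28 through 6.32 to 10.001 CPM at ZT12, a fitted difference of 0.12 ± 0.24. Abcg1 (chr17:31057698-31115777), which exports cholesterol to high-density lipoprotein, varied widely between mice of 1 group. It had 0 to 33 counts per mouse, and the 2 mice with 0 counts allow up to 0.182 CPM (control ZT12 replicate 2) and 0.200 CPM (knockout ZT0 replicate 3), taking 3 counts as the limit for counting error. In control ZT12 replicate 1 it had 33 counts (95% Poisson interval 1.02 to 2.07 CPM), which lies above the limit for replicate 2. The interval of its knockout difference, which holds the spread between mice, ran from -1.11 to 2.33 (log2).

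**Figure D2:**
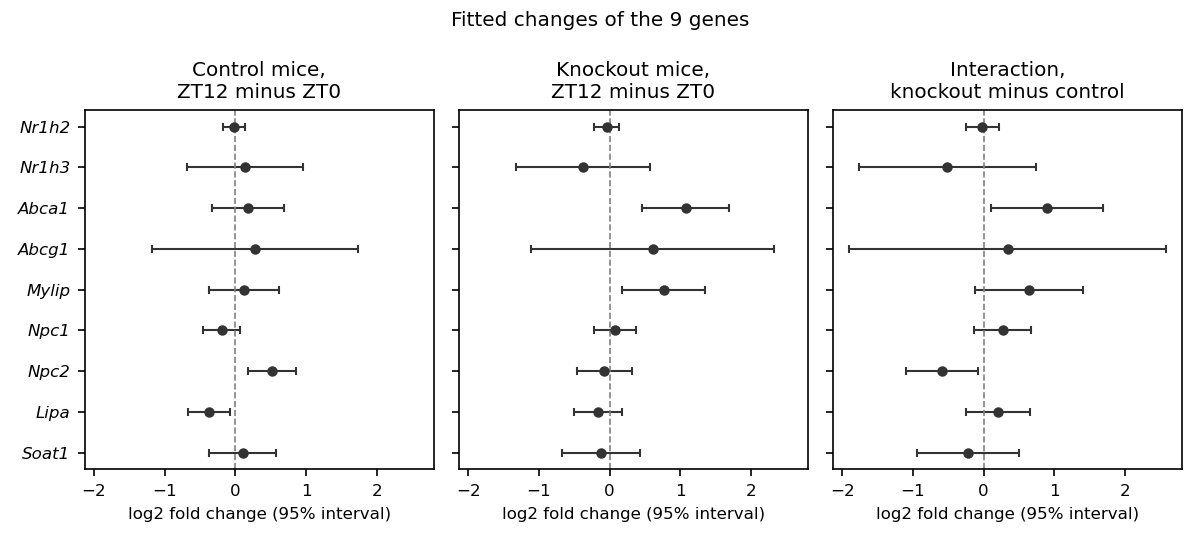
Fitted log2 fold changes of the 9 genes (horizontal axis; points are edgeR estimates and bars their 95% intervals) from ZT0 to ZT12 in control mice and in knockout mice, and the difference between the 2. Abca1 (1.08) and Mylip (0.77) lie right of 0 in knockout mice and Npc2 (0.52) right and Lipa (-0.37) left of 0 in control mice, and none was called after adjustment.

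The lysosomal genes Npc2 and Lipa had unadjusted p-values under 0.05 in control mice, with opposite signs, and neither was called in the edgeR fit of the group means. Npc2 (chr12:84754562-84773152), the soluble lysosomal cholesterol carrier, had lowest, median and highest values of 81.9, 94.0 and 105 CPM in control mice at ZT0, against 93.2, 121 and 214 CPM at ZT12. The 4 knockout mice at ZT0 had 106, 99.4, 149 and 99.7 CPM, and the 5 at ZT12 had 104, 140, 96.7, 89.9 and 109 CPM. The highest value in each of control ZT12 and knockout ZT0 came from the library with the highest immunoglobulin share of its group. The control means were 93.6 ± 7.75 and 134 ± 44.6 CPM (SD, n = 6 each), a fitted difference of 0.52 ± 0.16 (log2, SE; unadjusted p = 0.00384, adjusted p = 0.101 by edgeR) and an exact permutation p of 0.0173. DESeq2 called it (0.55, adjusted p = 0.0240), as did edgeR with the column run block or the myeloid covariate, both described below. Over the fits tried the adjusted p ran from 0.00637 to 0.860. Without control ZT12 replicate 2 the difference was 0.33, without the 4 libraries with over 59% immunoglobulin counts 0.24, without the 3 with both Xist and Y reads 0.58, and with the immunoglobulin share as a covariate 0.13 (adjusted p = 0.860). At ZT0, Npc2 was 113 ± 23.7 CPM in knockout mice (SD, n = 4), with an exact permutation p of 0.0238 against control mice, a fitted difference of 0.28 ± 0.18 (adjusted p = 0.926 by edgeR) and 0.12 without knockout ZT0 replicate 3. Between times in knockout mice the difference was -0.07 ± 0.19, and the interaction was -0.59 ± 0.25 (adjusted p = 0.442 by edgeR), which became -0.14 with the same covariate, -0.16 without the 4 libraries and -0.51 without the 3.

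Lipa (chr19:34492318-34527474) had lowest, median and highest values of 12.2, 14.9 and 17.1 CPM in control mice at ZT0, against 8.20, 11.4 and 14.7 CPM at ZT12. Its lowest value was that of control ZT12 replicate 2, where Npc2 was highest. At ZT0 the 3 control mice with Xist over 100 CPM had 12.2 to 14.5 CPM of Lipa and the 3 with less had 15.3 to 17.1, at ZT12 they had 8.20 to 14.7 and 9.85 to 12.1, and with Xist as a covariate the control difference was -0.36. The control means were 14.7 ± 1.74 and 11.3 ± 2.26 CPM (SD, n = 6 each), a fitted difference of -0.37 ± 0.14 (log2, SE; unadjusted p = 0.0167, adjusted p = 0.181 by edgeR) and an exact permutation p of 0.0216. In knockout mice Lipa was 18.3, 17.7, 11.9 and 15.8 CPM at ZT0, against 12.5, 20.1, 13.99, 12.7 and 11.9 CPM at ZT12, a difference of -0.16 ± 0.17. At ZT12 it was 0.33 ± 0.15 higher in knockout than in control mice (adjusted p = 0.562 by edgeR), and 0.18 without the 4 libraries with over 59% immunoglobulin counts. The control difference was -0.22 (unadjusted p = 0.149) without these 4 and -0.38 without the 3 libraries with both Xist and Y reads. With the immunoglobulin share as a covariate it was -0.10 (adjusted p = 0.914), and with the level of myeloid markers as a covariate -0.40 (adjusted p = 0.0462, the lowest over the fits tried, of which the highest was 0.914).

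Npc1 (chr18:12189693-12236400), the lysosomal membrane protein that receives cholesterol from Npc2, varied most among control mice at ZT12. It was 21.9, 23.7 and 27.4 CPM (lowest, median and highest) in control mice at ZT0, against 14.04, 21.1 and 26.8 CPM at ZT12. The knockout values were 25.4, 25.5, 17.6 and 26.9 CPM at ZT0, against 26.7, 24.0, 26.0, 24.3 and 24.7 CPM at ZT12. The 3 values below 18 CPM were control ZT12 replicates 2 and 4 and knockout ZT0 replicate 3, all among the 4 libraries with over 59% immunoglobulin counts. The control difference was -0.19 ± 0.13 (adjusted p = 0.433 by edgeR) and turned to 0.11 with the immunoglobulin share as a covariate. Per kb, Npc2 was 30.0 times Npc1 in control ZT12 replicate 2, 17.2 times in replicate 4 and 16.7 times in knockout ZT0 replicate 3, against 6.60 to 13.6 times in the other 18 mice. The part of the immunoglobulin share in these values was not tested beyond the covariate fit. That fit cannot fully separate the share from time of day in control mice. Npc1 shares 305 bases with 3110002H16Rik on the opposite strand (9697 counts in total against 8266), and whether reads were counted by strand is not given in the sources used here. Soat1 (chr1:156424525-156474331) ranged from 1.82 to 6.56 CPM over all mice, with group means from 4.18 ± 1.22 to 4.71 ± 0.772 CPM (SD, n = 6 and 4), and its control difference of 0.10 ± 0.23 and knockout difference of -0.12 ± 0.27 were within their errors.

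**Figure D3:**
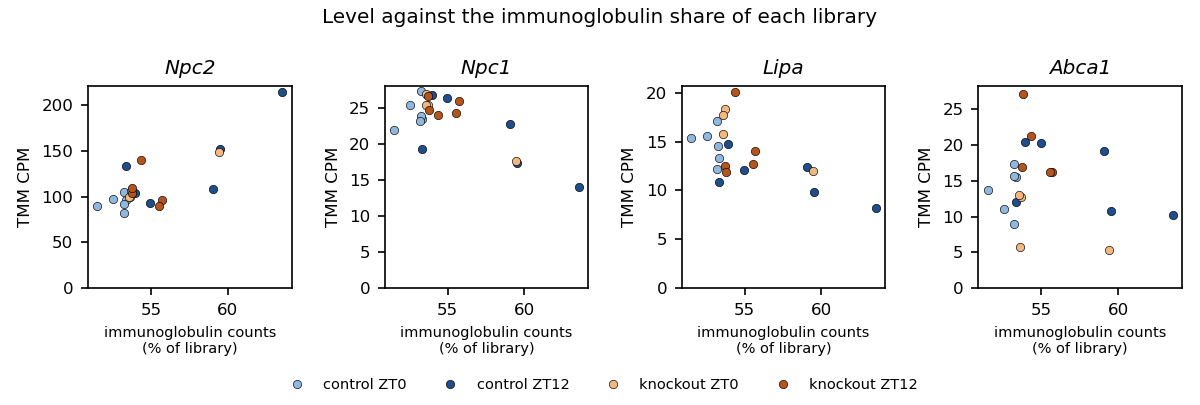
Level of Npc2, Npc1, Lipa and Abca1 in CPM (vertical axes from 0) against the percentage of each library's counts on immunoglobulin genes (horizontal axes), 1 point per mouse, coloured by group. The 4 libraries above 59% hold the 3 highest Npc2 values and the 3 lowest Npc1 values.

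By contrast with these 9, most of the cholesterol synthesis genes fell in control mice from ZT0 to ZT12. Of 20 tested, 12 were called lower and 0 higher by edgeR, with a median log2 difference of -0.54, and 14 lower and 1 higher by DESeq2. The 1 gene of the list with a positive difference in the edgeR fit was Ebp, a sterol isomerase of the pathway (0.40 ± 0.12 by edgeR, adjusted p = 0.0782). Nsdhl, a late enzyme of the pathway, fell by 0.79 (adjusted p = 0.00475 by edgeR), and Srebf2, whose product drives the pathway, fell from 368 ± 22.9 to 247 ± 30.8 CPM (SD, n = 6 each; adjusted p = 0.00475). Without the 4 libraries with over 59% immunoglobulin counts, 3 of the 20 were called lower (median -0.40) among 12 genes called in all. Without the 3 libraries with both Xist and Y reads, 8 were called lower among 315 called in all. With the immunoglobulin share as a covariate 0 were called, as of all genes (14 lower at an unadjusted p under 0.05, median -0.39). The share of all genes at that p in the covariate fit is not given here, so the 14 stand without a background. In knockout mice none of the 20 was called by edgeR and 2, both lower, by DESeq2, while 11 were lower at an unadjusted p under 0.05, against 8.01% of all genes in either direction, and the median was -0.33. The study named this pathway, among others, for time of day patterns in these same samples and in a separate set of wild-type samples. Its direction here is therefore not independent evidence. The interaction was not called for any of the 20 by edgeR or DESeq2 (unadjusted p under 0.05 by edgeR for 3). Between genotypes at ZT0 and at ZT12 none was called by either (unadjusted p under 0.05 by edgeR for 0 and 1).

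The lists nearest to the 9 genes are given here for control mice, against a background of 1.73% of all genes called and 18.1% at an unadjusted p under 0.05. Of 9 LXR partners and coregulators tested, none was called by edgeR or DESeq2 (6 had an unadjusted p under 0.05, and the median was -0.31), and the 2 smallest p-values belonged to the coactivators Ncoa3 (-0.31 ± 0.11) and Ncoa2 (-0.33 ± 0.13). Without the 4 libraries with over 59% immunoglobulin counts these were -0.14 and -0.09, the median was -0.05, and 1 of the 9, with a positive difference, had an unadjusted p under 0.05. Of 14 other LXR targets, 1 was called lower by edgeR, the fatty acid desaturase Scd2. Its level was 92.4 ± 9.27 CPM at ZT0 and 48.7 ± 12.5 CPM at ZT12 (SD, n = 6 each, adjusted p = 0.0107 by edgeR). The median of the list was 0.08, with 1 higher and 4 lower at an unadjusted p under 0.05, and DESeq2 called 3 lower. Of 7 genes that make or sense oxysterols, 1 was called higher and 1 lower, and the former, Cyp27a1, which makes an oxysterol, differed (adjusted p = 0.0260 by edgeR) on a mean of 0.320 CPM at ZT0 and 1.34 CPM at ZT12. Of 25 genes for sterol transport between organelles, 3 were called higher and 0 lower, namely the lysosomal membrane proteins Lamp1 (14.1 ± 1.60 to 23.9 ± 4.68 CPM; adjusted p = 0.0115), Lamp2 (adjusted p = 0.0495) and Slc38a9 (adjusted p = 0.0403), the last a sensor of amino acids and cholesterol, and the median of the list was 0.09, with 4 higher and 3 lower at an unadjusted p under 0.05. Of 29 lysosomal hydrolases and regulators, 3 were called higher, among them Glb1 (by 0.41) and Ctsa (by 0.30), and 0 lower, with a median of 0.15 and with 9 higher and 2 lower at an unadjusted p under 0.05. Of 8 genes of sterol ester storage, none was called by edgeR or DESeq2 and 1 had an unadjusted p under 0.05, Acat1, at 0.30 ± 0.14, followed by the lipid droplet protein gene Plin3, at 0.10 ± 0.15. Acat1 encodes the mitochondrial acetoacetyl-CoA thiolase and not a sterol esterifying enzyme, so that it and the related Acat2 stand in this list by name only. Of 9 genes of sterol uptake, 1 was called lower and 0 higher. With the immunoglobulin share as a covariate edgeR called 0 of all genes in control mice, so no call in any of these lists remained. This share was higher in every control mouse at ZT12 than at ZT0, so that fit cannot fully separate it from time of day. Leaving out the 4 libraries with over 59% immunoglobulin counts took away replicates 2, 4 and 5 of the 6 control ZT12 mice. In control mice edgeR then called 12 genes in all. None of these was among the other LXR targets, transport or lysosomal genes. In the latter lists 2, 3 and 8 genes, in that order, were higher and 3, 1 and 1 lower at an unadjusted p under 0.05. The 18.1% above is from the fit with all libraries. It is no background for counts at that p without the 4 libraries, for which no share of all genes is given here. In knockout mice, in the interaction and between genotypes, edgeR called none of these listed genes, and DESeq2 called none either, while at most 3 of any of these lists had an unadjusted p under 0.05 in 1 direction. Of the 9 LXR partners and coregulators, 3 were higher at an unadjusted p under 0.05 in the interaction (10.8% of all genes in either direction) and 3 in knockout against control mice at ZT12 (8.83% of all genes), with medians of 0.42 and 0.32.

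**Figure D4:**
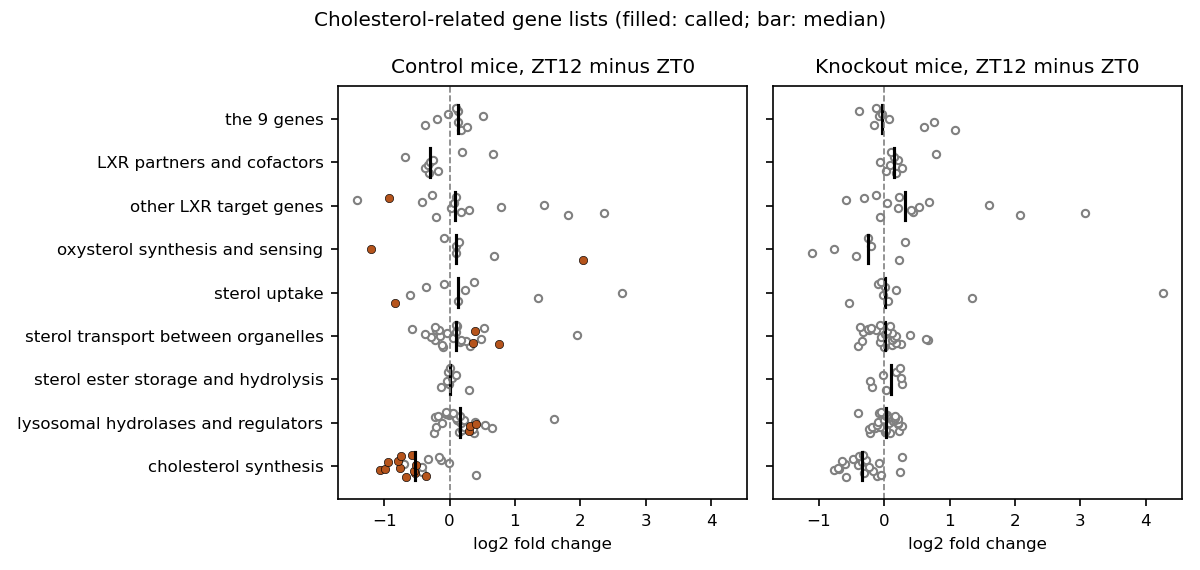
Log2 fold change from ZT0 to ZT12 (horizontal axis) of each gene tested, in rows by gene list, for control mice and knockout mice; filled points were called by edgeR at an adjusted p under 0.05 and black bars are list medians. The 9 genes have medians of 0.12 and -0.04 and no filled point, whereas cholesterol synthesis has 12 filled points, all below 0, in control mice and none in knockout mice.

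Other cells can bring in RNA for these genes, and in bulk samples fewer cells of a type and less RNA per cell cannot be told apart. The gate shown in the study for flow cytometry of these plasma cells takes live CD45+ cells without CD3, CD5, B220 or IgD, which would leave out epithelial cells, T cells and naive B cells, and whether the sort for sequencing used the whole gate is not given in the sources used here. Of 20 myeloid markers, 17 passed the count filter, with a summed level of 57.8 to 173 CPM per library. The most abundant was Sirpa at a mean of 19.8 CPM, with Csf1r at 15.6 and Lyz2 at 15.3, and S100a8 and S100a9 were at 0 in 19 and 20 of the 21 libraries. The summed level was 112 ± 23.7 CPM (SD, n = 6) in control mice at ZT0 and 129 ± 40.6 (n = 6) at ZT12, and 105 ± 44.8 (n = 4) and 119 ± 26.3 (n = 5) in knockout mice, and 1 marker, Mrc1, was called higher in control mice at ZT12. It was lowest in knockout ZT0 replicate 3 (57.8 CPM) and control ZT12 replicate 2 (61.5 CPM), the 2 libraries in which Abcg1 had 0 counts. With the myeloid markers as a covariate, the knockout difference of Abca1 was 1.02 and that of Mylip 0.70. Of 20 epithelial markers, 19 passed the filter, led by Epcam (67.2 CPM), with a summed level of 55.8 to 1090 CPM. In control mice the mean was 120 ± 120 CPM (SD, n = 6) at ZT0 and 299.8 ± 392 (n = 6) at ZT12 and the median 75.0 and 137, and in knockout mice the mean was 84.8 ± 5.84 (n = 4) and 257 ± 320 (n = 5) and the median 86.2 and 99.1. Of the 19, 17 had a positive fitted difference in control mice (median 2.38, 9 at an unadjusted p under 0.05, 0 called by edgeR and 3 by DESeq2), and 19 in knockout mice (median 2.13, 1 at an unadjusted p under 0.05, 0 called by either). With these markers as a covariate the differences of Abca1 and Mylip were 0.96 and 0.73. T cell markers were led by Cd28 (29.1 CPM, with Cd3e at 0.420 CPM) and stromal and endothelial markers by Pecam1 (33.4 CPM, with Kdr at 0 in 17 libraries). Their summed levels were 31.6 to 67.6 CPM for T cells, 16.7 to 41.1 CPM for other B cells and 24.5 to 48.2 CPM for stromal and endothelial cells. Cd28 with Cd4 (15.5 CPM) made up most of the T cell sum and Pecam1 (next Cdh5 at 2.53 CPM) most of the stromal and endothelial sum. These sums therefore follow a few genes and do not measure a share of cells. Of these markers only Pecam1 was called lower in control mice at ZT12 (log2 difference -0.51, adjusted p = 0.0494 by edgeR). The T cell sum was 52.8 ± 7.29 CPM (SD, n = 6) in control mice at ZT0 and 47.2 ± 11.3 (n = 6) at ZT12, and 57.6 ± 10.9 (n = 4) and 58.4 ± 4.24 (n = 5) in knockout mice. Of the 13 T cell markers, all had a positive fitted difference between knockout and control mice at ZT12 (median 1.24, 1 at an unadjusted p under 0.05, none called by edgeR or DESeq2), and 11 a negative one between times in control mice (median -0.44, 2 at an unadjusted p under 0.05, none called by either). Of the 12 plasma cell markers, edgeR called 0 in control mice. At an unadjusted p under 0.05, 4 were higher and 1 lower at ZT12 (18.1% of all genes), and DESeq2 called 3 higher and 1 lower. The summed level of these markers was 329167 ± 23357 CPM (SD, n = 6) in control mice at ZT0 and 415294 ± 100855 (n = 6) at ZT12. In knockout mice it was 348781 ± 60544 (n = 4) and 336857 ± 14607 (n = 5). The part of other cells in the results was not tested beyond the covariate fits.

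The genes most like each of the 9 across the mice were found by the mean absolute difference of z-scored log2 CPM over 21 mice, where 0 is an identical profile and a protein-coding gene with a mean of at least 5 CPM typically gave about 1 (medians from 1.02 to 1.12). Npc2 had the closest neighbours, the elongation factor gene Eef1g (0.183) and the ribosomal protein gene Rps9 (0.233). Npc1 was closest to Uhmk1 (0.244) and Xpr1 (0.245), Abca1 to Lig4 (0.422) and Glud1 (0.427), and Mylip to Eml3 (0.426) and Cyb561 (0.461). Abcg1 was closest to Pxdc1 (0.428) and Abr (0.461), Lipa to Dclre1c (0.460) and Cyfip2 (0.463), and Nr1h3 to Ncln (0.523) and BC017158 (0.601). The matches of Soat1 were Dcp2 (0.526) and Espl1 (0.533), and those of Nr1h2, the loosest, were Cep97 (0.597) and Tbc1d22b (0.608). Among the 9 genes themselves the closest pairs were Abcg1 and Npc1 (0.643), Npc1 and Lipa (0.681), and Abca1 and Mylip (0.683). All points share their libraries, so library composition enters every one of these values.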

How the data were processed

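The authors deposited whole-number counts of reads per gene for 21 libraries, each from 1 mouse, made from poly-A RNA with the NEBNext Ultra kit. The aligner, the counter, the genome build and the use of strand are not given in the sources used here. The submitters' processing notes name DESeq and DESeq2. Genes with fewer than 10 counts over all libraries were dropped, as in the study, and the rest were scaled by TMM. The 4 group means were fitted by robust quasi-likelihood with edgeR 4.0.16 (R 4.3.3), with Benjamini-Hochberg adjustment over 20256 genes. Levels are CPM after TMM, and per kb when genes are compared. Exact permutation tests over mice (36 in all, of which 4 gave p under 0.05) were two-sided and unadjusted. All 46 within-group library pairs differed by more than sampling noise (chi-square per gene of 26.5 or more). That libraries came from separate mice is taken from the study, and p-values measure the spread between these libraries.

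The members, gene lists and tests were chosen with earlier results of these data known. Named genes are the 9 members in every group, list genes called in any comparison or otherwise the 2 with the smallest p in control mice, Arntl and Cd79a, the 2 most alike genes for each member, and the leading and absent cell markers. Xist, Ddx3y, Cd3e, Csf1r, Lyz2, Kdr, Mrc1 and Ebp were added after their values were seen. Of the 12 cholesterol synthesis genes called, 2 are named as examples, and some single genes of the uptake, oxysterol, lysosomal and B cell lists are not reported here. Lists covered LXR partners, other LXR targets, oxysterol, uptake, transport, ester storage, lysosomal and cholesterol synthesis genes, and markers of 6 cell classes. The alternatives were DESeq2 1.42.0, its size factors, library size only, immunoglobulin genes removed, 2 other count filters, a threshold of 0.01, own groups, a replicate block, 4 covariates and each library left out, and after seeing the data 2 sets of libraries left out, a block for runs of columns, counts of each list under every setting, and another gene length. At 14471018 to 22785835 counts per library, 3 counts of a gene correspond to 0.134 to 0.240 CPM. These limits cover counting error only, and the intervals of the fit hold the spread between libraries too.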

Additional observations from a re-analysis of the deposited data

Results flagged for a closer look

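A single mouse stood apart from the rest of its group in 5 of the 36 gene and group combinations, judged by the gap to its nearest neighbour against the range of the group, where chance alone gives about 1 in 20. Mylip in knockout ZT0 replicate 4 was 7.31 CPM, with the next mouse at 3.51. In knockout ZT0 replicate 3, Npc1 was 17.6 CPM (next 25.4) and Npc2 was 149 CPM (next 106), and this library had 59.4% immunoglobulin counts and both Xist and Y chromosome reads. Soat1 in control ZT0 replicate 6 was 6.56 CPM (next 4.18), in the library with the highest epithelial marker level of its group (364 CPM). Lipa in knockout ZT12 replicate 2 was 20.1 CPM (next 13.99). The part of library composition in these values was not tested.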

How the results depend on the processing

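None of the 9 genes was called by edgeR in any comparison under the other normalizations, filters, thresholds, groups and library sets tried, with the exceptions that follow. DESeq2 called 1 in control mice (Npc2) and 1 in knockout mice (Abca1), edgeR with the column run block described below called 1 in control mice (Npc2), edgeR with the myeloid covariate called 2 in control mice (Npc2 and Lipa), and leaving out each library in turn gave 0 to 1 in control mice, the 1 being Npc2 without control ZT12 replicate 1 (adjusted p = 0.0432) or replicate 6 (adjusted p = 0.0338), and 0 in the other 4 comparisons. DESeq2 called 1052 genes in all in control mice (edgeR 350) and 47 in knockout mice (edgeR 0), and in control mice 3 of the other LXR targets lower (edgeR 1), 1 transport gene lower (edgeR 0), 14 cholesterol synthesis genes lower and 1 higher (edgeR 12 and 0) and 5 lysosomal genes higher (edgeR 3). Leaving out each library in turn, the control calls ran from 31 (without control ZT0 replicate 2) to 944 (without control ZT12 replicate 1), and of the cholesterol synthesis genes 5 to 13 were called lower. With library size only, the control medians of the other LXR targets, transport and lysosomal genes turned to -0.12, -0.12 and -0.05. Over all genes and apart from leaving out libraries, the control calls ranged from 0 with the immunoglobulin share as a covariate to 1419 with the myeloid covariate, against 350. Of 666 fitted differences of the 9 genes under alternatives other than leaving out a library, 607 kept their direction and side of the threshold, 5 became called and 54 changed sign, and the cause was not tested. With library size only, the median of all genes was -0.20 (log2) in control mice, 0.19 in the interaction and 0.12 between genotypes at ZT12, against 0.01, 0.01 and -0.01 with TMM. The log2 differences that changed sign follow, by setting. With DESeq2, Nr1h2 0.0050 in control mice and Nr1h2 0.0036 between genotypes at ZT0. With DESeq2's size factors, Nr1h2 0.0053 in control mice, Nr1h2 0.0035 between genotypes at ZT0 and Abcg1 -0.0011 between genotypes at ZT12. With library size only, Abca1 -0.0092, Nr1h3 -0.058, Mylip -0.082, Soat1 -0.076 in control mice, Nr1h2 0.16 in the interaction and Nr1h2 0.11, Soat1 0.034 between genotypes at ZT12. Without immunoglobulin genes, Nr1h2 0.0040 between genotypes at ZT0. With filterByExpr, Nr1h2 0.0040 between genotypes at ZT0. With the compared groups alone, Nr1h2 0.0025 between genotypes at ZT0. With the replicate block, Nr1h2 0.022, Npc1 0.015 between genotypes at ZT0 and Abcg1 -0.0039, Soat1 0.072 between genotypes at ZT12. With the column run block, Mylip -0.018 in control mice, Npc2 0.051 in knockout mice and Abcg1 -0.21, Mylip -0.0031 between genotypes at ZT12. With the immunoglobulin share as a covariate, Npc1 0.11 in control mice, Abcg1 -0.55, Npc1 -0.045, Lipa -0.074 in the interaction, Nr1h2 0.0046, Npc1 0.12 between genotypes at ZT0 and Abcg1 -0.56 between genotypes at ZT12. With the myeloid covariate, Abcg1 -0.61 in control mice, Npc1 -0.017, Npc2 0.069 in knockout mice and Nr1h2 0.0028 between genotypes at ZT0. With the epithelial covariate, Nr1h3 -0.24, Soat1 -0.0069 in control mice. With Xist as a covariate, Nr1h2 0.00069 between genotypes at ZT0. Without the 3 libraries with both Xist and Y reads, Nr1h3 -0.12 in control mice, Npc1 -0.041, Npc2 0.078 in knockout mice, Abcg1 0.079, Nr1h2 0.0087, Npc1 0.11 between genotypes at ZT0 and Nr1h3 0.0055 between genotypes at ZT12. Without the 4 libraries over 59% immunoglobulin, Npc1 0.0026 in control mice, Npc1 -0.050, Npc2 0.080 in knockout mice, Abcg1 -0.44, Npc1 -0.052, Lipa -0.059 in the interaction, Abcg1 0.079, Nr1h2 0.0077, Npc1 0.11 between genotypes at ZT0 and Abcg1 -0.36 between genotypes at ZT12. Leaving out each library in turn, the ranges of those that changed sign were in control mice Abcg1 -0.066 to 0.54, Nr1h2 -0.037 to 0.0024, Nr1h3 -0.13 to 0.35, Mylip -0.027 to 0.26, Soat1 -0.0095 to 0.28, then in knockout mice Npc1 -0.045 to 0.12, Npc2 -0.18 to 0.084, then in the interaction Abcg1 -0.056 to 1.55, then between genotypes at ZT0 Abcg1 -1.54 to 0.067, Nr1h2 -0.026 to 0.054, Npc1 -0.075 to 0.10, then between genotypes at ZT12 Abcg1 -0.36 to 0.34, Nr1h3 -0.43 to 0.022, Mylip -0.011 to 0.27, Soat1 -0.22 to 0.052.

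The replicate numbers are shared by the groups, but of 28 same-number pairs only 7 had deviations that correlated over 0.1 (range -0.31 to 0.35), so they were not taken as pairs. With the replicate block, 0 of the 9 genes were called in each comparison, Abca1 differed by 1.03 in knockout mice (adjusted p = 0.716 by edgeR) and Npc2 by 0.47 in control mice (adjusted p = 0.154), and 183 genes in all were called in control mice against 350. The columns of the table fall into 3 runs of 7 libraries that each hold all 4 groups, with Xist over 100 CPM in 7, 1 and 2 libraries, and no source used here says what the order stands for. Deviations from the group means correlated at a median of 0.14 over 52 pairs of libraries from the same run and other groups (range -0.26 to 0.50) and of -0.08 over 112 pairs from other runs (range -0.59 to 0.57). With these runs as a block, a fit chosen after seeing the data, Npc2 in control mice was called (0.54, adjusted p = 0.0384 by edgeR), Abca1 in knockout mice was not (1.00, adjusted p = 0.274), and 545 genes in all were called in control mice. Abcg1 and Nr1h3 had at most 33 counts in a library, and in both the Poisson intervals of some mice of 1 group did not overlap, so that the spread between mice adds to counting error.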
